A study of Mus musculus with 90 samples.

Results

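Mouse eggs and embryos carry a small set of proteins that copy, add, remove or shield methyl groups on cytosine, and the transcripts of 10 of their genes were followed from the oocyte to the 8-cell embryo. The genes were chosen by name, with earlier results of these data known. They are the DNA methyltransferases Dnmt1, Dnmt3a and Dnmt3b, the cofactors Dnmt3l and Uhrf1, and the dioxygenases Tet1 and Tet3. The methylation protectors Dppa3, Zfp57 and Trim28 complete the set. All 10 were among the 24422 genes of the count table, and all 10 passed the filter on low counts that left 16511 genes to be tested. The comparison covered 6 groups of single oocytes or embryos, all of CD-1 mice and all from females superovulated with 5 IU of pregnant mare serum gonadotropin and 5 IU of hCG. WT and Plag1 knockout MII oocytes were taken from the oviduct 21 to 23 h after hCG and were not cultured. The 2-cell (2c) embryos were sampled 45 to 47 h and the 8-cell (8c) embryos 71 to 73 h after fertilization, following culture from the zygote. Embryos called matPlag1KO came from knockout females and WT males, so they lacked the maternal Plag1 allele but carried a paternal one. PLAG1 is a zinc finger transcription factor, and the question asked of the samples was whether its absence from the oocyte changes the embryo's transcripts.

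In mammals the methylation of CpG dinucleotides is copied at each replication by DNMT1, which is brought to half-methylated DNA by UHRF1. DNMT3A and DNMT3B write new methylation, and DNMT3L, which has no catalytic activity of its own, stimulates them and is needed to set maternal imprints in the growing oocyte. TET enzymes oxidize 5-methylcytosine, and oocyte TET3 acts on the paternal pronucleus after fertilization. DPPA3 (also called STELLA or PGC7) shields the maternal genome from that oxidation and restrains UHRF1 in the oocyte, whereas ZFP57 binds methylated imprinting control regions and recruits TRIM28 (KAP1), which keeps them methylated while the rest of the genome loses methylation during cleavage. The measurements below are of RNA only, and neither methylation nor protein was measured.

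Of 90 libraries, 78 were kept (16 WT and 14 knockout MII oocytes, 11 and 11 2c embryos, and 15 and 11 8c embryos), with 92475 to 2502421 gene counts each. The libraries came in 2 sets, labelled libA and libB. These are called plates A and B here, a name the labels do not give, and both held every group. A pair of oocytes in the same well position, A5, 1 on each plate, had the highest totals (2502421 counts in a WT and 1772844 in a knockout oocyte), and the WT one held the highest spike-in scaled value of its group for 8 of the 10 genes. Oocyte markers were detected in oocytes, with a summed level of 3805 to 23792 CPM over 8 genes in WT, and 5 of 8 2-cell markers had counts at 2c, whereas Zscan4f, Tcstv1 and Tcstv3 were at 0 in all groups. The targeted gene, Plag1, had counts in 16 of 16 WT and 3 of 14 knockout oocytes. At 2c the order was the opposite, with Plag1 counts in 1 of 11 WT and 9 of 11 libraries labelled matPlag1KO, and at 8c counts were found in 5 of 15 and 4 of 11. The labels do not name the donor females, so p-values measure the spread between these samples, some of which may share a mother.

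In the mm9 coordinates of the count table, Dnmt1 lies at chr9:20711650-20764332, Dnmt3a at chr12:3806980-3914443, Dnmt3b at chr2:153475185-153513466, Dnmt3l at chr10:77505032-77526367 and Uhrf1 at chr17:56442760-56462909. Tet1 lies at chr10:62267318-62342762, Tet3 at chr6:83312368-83391672, Dppa3 at chr6:122576442-122580289, Zfp57 at chr17:37138108-37147674 and Trim28 at chr7:13609501-13616381. Counts were summed over each gene, so the alternative first exons that several of these genes have were not separated. Dnmt3a overlaps the antisense transcript Dnmt3aos, Dnmt3l overlaps Aire on the other strand, and Dnmt1 and Tet3 each contain a microRNA gene. The use of strand in counting was not given in the sources used here, so reads of such partners cannot be told apart. Dppa3 and Dnmt3l also have pseudogene copies that could take or lend reads.

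Promoter sequence from RefSeq (GRCm38.p6) was found for 9 of the 10 genes, with 18 annotated start sites in all, and Dppa3 was not in the table. Each window ran from 250 bases before to 50 bases after a start. CpG content differed between starts of the same gene. Shown first, 5′ to 3′ on the gene's strand and with each CpG in capitals, are the 250 bases before the most upstream Dnmt1 start (chr9:20959889-20960138, minus strand), which held 2 CpGs, and before the most downstream one (chr9:20952624-20952873, minus strand), which held 26. Dnmt1 is known to be transcribed from a separate upstream first exon in the oocyte. The third is the stretch before the downstream Uhrf1 start (chr17:56304063-56304312, plus strand), with 30 CpGs, shown because Uhrf1 was the gene called between genotypes at 2c.
Dnmt1 upstream start: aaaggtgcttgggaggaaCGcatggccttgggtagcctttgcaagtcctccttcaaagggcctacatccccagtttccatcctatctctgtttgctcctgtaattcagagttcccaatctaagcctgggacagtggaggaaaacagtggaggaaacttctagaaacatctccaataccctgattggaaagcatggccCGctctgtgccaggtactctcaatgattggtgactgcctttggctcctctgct
Dnmt1 downstream start: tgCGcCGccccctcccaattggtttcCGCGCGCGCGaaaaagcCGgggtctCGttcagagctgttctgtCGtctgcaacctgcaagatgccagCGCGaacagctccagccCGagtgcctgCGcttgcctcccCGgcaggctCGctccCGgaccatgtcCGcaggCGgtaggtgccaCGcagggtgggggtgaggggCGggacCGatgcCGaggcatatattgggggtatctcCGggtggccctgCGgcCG
Uhrf1 downstream start: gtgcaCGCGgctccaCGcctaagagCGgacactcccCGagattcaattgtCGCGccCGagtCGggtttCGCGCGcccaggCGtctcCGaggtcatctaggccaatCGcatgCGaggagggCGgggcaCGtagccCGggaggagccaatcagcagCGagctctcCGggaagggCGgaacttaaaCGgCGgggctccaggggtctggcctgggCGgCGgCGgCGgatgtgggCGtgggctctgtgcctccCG

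These windows were searched on both strands for the core of the PLAG1 binding site, written as GGGGC or GAGGC, then 6 to 8 bases of any kind, then GGG. The paper's consensus site is written with a G-or-T position, which this pattern did not allow, and the paper's promoter windows were longer. A match was found in 7 of 18 windows (38.9%), belonging to Dnmt1, Dnmt3a, Dnmt3b and Dnmt3l, against 22.7% of all 32851 mouse windows. The windows of the 2 most upstream Dnmt3a starts overlap and share matches, so these are counted in both. The core is rich in G and C. The Dnmt3a and Dnmt3b windows held 74% to 82.3% G and C, against a median of 52.7% over all windows. The part of base content in the shares was not tested. No match to this pattern was found in the Uhrf1, Tet1, Tet3, Zfp57 or Trim28 windows. The Dnmt3b window is shown as an example, with 3 matches on the gene's strand, 2 of which overlap (chr2:153649199-153649448, plus strand, matches in capitals). The most upstream Dnmt3a window held more, with 5 matches, 3 of them on the gene's strand. A match is a description of the letters and not evidence of binding.
Dnmt3b: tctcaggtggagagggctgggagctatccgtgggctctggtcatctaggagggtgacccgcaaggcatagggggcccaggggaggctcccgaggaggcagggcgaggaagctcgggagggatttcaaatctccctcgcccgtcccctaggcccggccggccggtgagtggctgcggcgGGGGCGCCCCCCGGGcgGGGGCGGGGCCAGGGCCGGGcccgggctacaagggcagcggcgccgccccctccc

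Levels across stages are given as counts per 1000 spike-in counts, a scale that follows the amount of RNA per oocyte or embryo, and changes as log2 values tested in edgeR (quasi-likelihood), with p adjusted by Benjamini-Hochberg over all tested genes. From MII to 2c in WT, 9 of 10 genes were lower and 1, Tet1, was not called. The background was high, since 51.3% of all tested genes were lower and 14.1% higher, and the median over all genes was -1.46 against -1.996 over the 10. The same 9 genes were lower in matPlag1KO, where 50.3% of all genes were lower, and the medians were -1.42 and -3.08. From 2c to 8c in WT, 5 genes were higher (Dnmt3b, Dnmt3l, Tet1, Dppa3 and Trim28; background 31.9%) and 4 lower (Dnmt1, Dnmt3a, Tet3 and Zfp57; background 16.2%). In matPlag1KO the same 5 were higher (background 29.1%), and Uhrf1, Tet3 and Zfp57 were lower (background 19.5%).

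**Figure D1:**
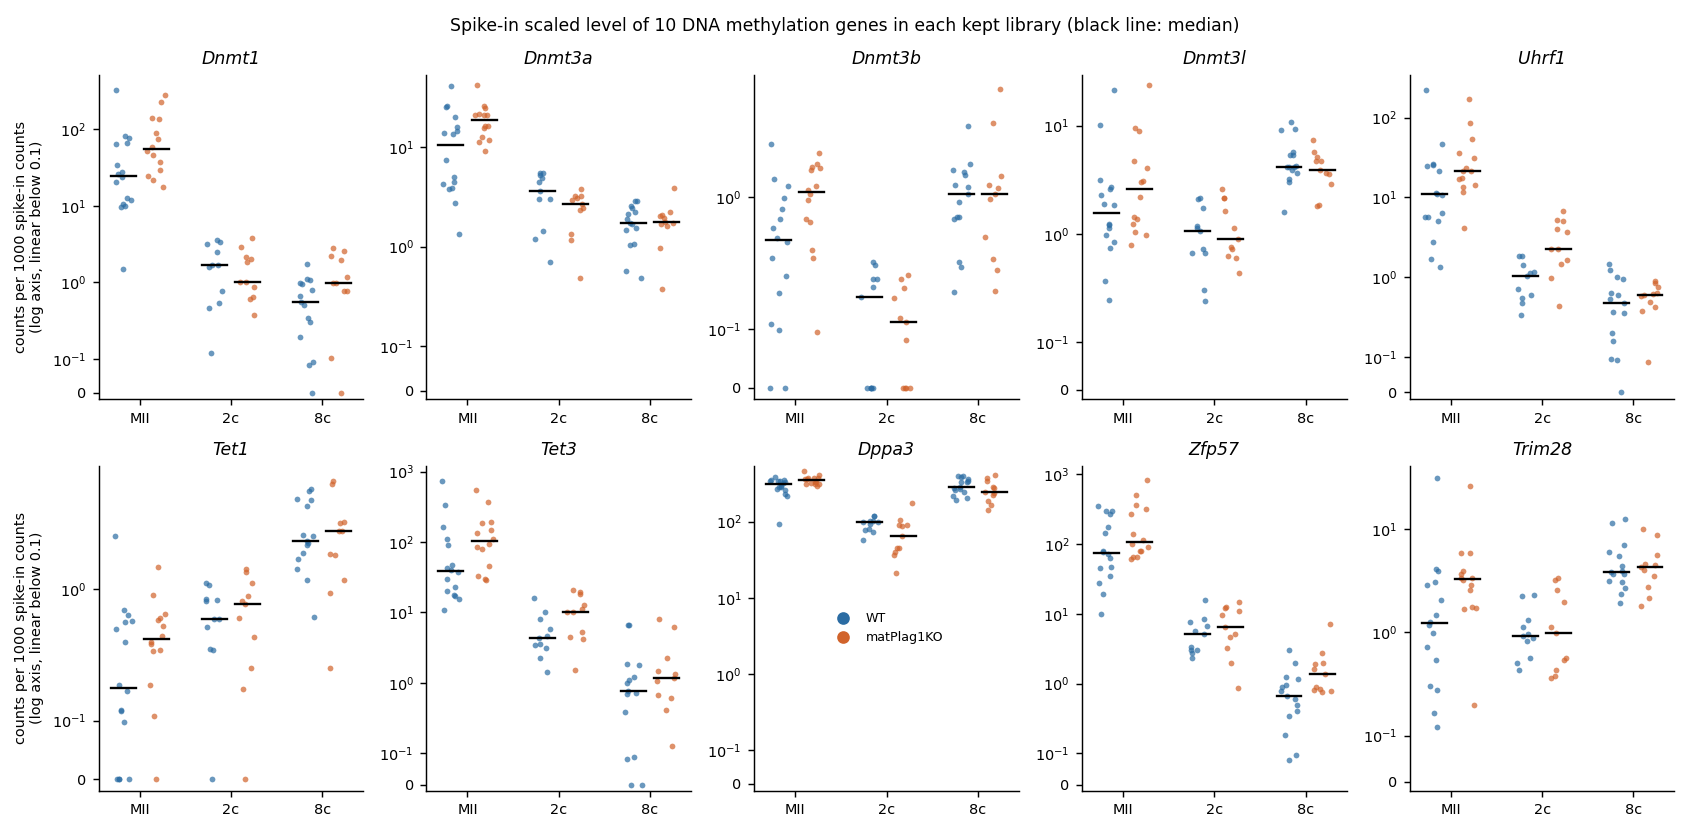
Counts per 1000 spike-in counts (log axis, linear below 0.1) of the 10 genes in each kept library at MII, 2c and 8c, WT in blue and matPlag1KO in orange, with black lines at group medians. Dnmt1, Dnmt3a, Uhrf1, Tet3 and Zfp57 were highest in oocytes, Tet1 was highest at 8c, and Dnmt3b, Dnmt3l, Dppa3 and Trim28 had their lowest medians at 2c.

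The maintenance pair had far lower levels in 2c embryos than in MII oocytes, with no sample taken in between. Dnmt1, the maintenance methyltransferase, had 1.503 to 332 counts per 1000 spike-in counts in WT oocytes (median 24.9), 0.119 to 3.61 at 2c (median 1.67) and 0 to 1.76 at 8c (median 0.546). In knockout oocytes it had 17.5 to 282 (median 55.4), in matPlag1KO 2c embryos 0.375 to 3.81 (median 1.02) and at 8c 0 to 2.78 (median 0.992). The knockout oocytes and matPlag1KO 2c embryos did not overlap, while 1 or more WT oocytes fell within the 2c range. The fall from MII to 2c was 28.3-fold in WT (log2 -4.82 ± 0.61 SE, n = 16 and 11, adjusted p = 1.03e-10) and 55.9-fold in matPlag1KO (log2 -5.81 ± 0.64, n = 14 and 11, adjusted p = 1.02e-12). Without the A5 oocytes the falls were 17.8-fold and 49.2-fold. From 2c to 8c Dnmt1 was 2.80-fold lower in WT (adjusted p = 0.0144), and in matPlag1KO the change was -0.28 ± 0.56 (adjusted p = 0.703).

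Uhrf1, whose product finds half-methylated CpGs for DNMT1, had 1.33 to 223 counts per 1000 spike-in counts in WT oocytes (median 10.9), 0.333 to 1.84 at 2c (median 1.03) and 0 to 1.47 at 8c (median 0.476). The matPlag1KO libraries had 4.13 to 170.0 in oocytes (median 21.3), 0.429 to 6.64 at 2c (median 2.26) and 0.0845 to 0.882 at 8c (median 0.602). The 2c medians thus stood in the opposite order to those of Dnmt1, with matPlag1KO above WT. Uhrf1 was 26.3-fold lower at 2c than at MII in WT (log2 -4.72 ± 0.61, adjusted p = 2.42e-10) and 12.1-fold lower in matPlag1KO (log2 -3.60 ± 0.58, adjusted p = 9.94e-08), and without the A5 oocytes 13.5-fold and 8.78-fold lower. The next step, to 8c, was -0.88 ± 0.54 in WT (adjusted p = 0.167) and -2.39 ± 0.59, or 5.26-fold lower, in matPlag1KO (adjusted p = 0.000476).

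Among the de novo genes the paths of Dnmt3a and Dnmt3b parted after 2c. Dnmt3a, the main de novo enzyme of the growing oocyte, went from 1.34 to 41.2 counts per 1000 spike-in counts in WT oocytes (median 10.4) through 0.707 to 5.51 at 2c (median 3.65) to 0.489 to 2.90 at 8c (median 1.71), and matPlag1KO medians were 18.6, 2.68 and 1.76. Its level was 3.60-fold lower at 2c than at MII in WT (log2 -1.85 ± 0.38, adjusted p = 1.68e-05) and 7.92-fold lower in matPlag1KO (log2 -2.99 ± 0.41, adjusted p = 1.04e-09). It was 1.97-fold lower again at 8c in WT (adjusted p = 0.0203), with -0.39 ± 0.40 in matPlag1KO (adjusted p = 0.419).

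Dnmt3b, the de novo enzyme known for its role around implantation, was sparse at 2c. It had 0 to 2.53 counts per 1000 spike-in counts in WT oocytes (median 0.469), 0 to 0.323 at 2c (median 0.175), where 6 of 11 libraries held 14 counts in all, and 0.189 to 3.43 at 8c (median 1.06), where all 15 libraries had counts. In matPlag1KO it had 0.0941 to 2.13 (median 1.10), 0 to 0.258 (median 0.112, 12 counts in 7 of 11 libraries) and 0.194 to 6.49 (median 1.05). The rise from 2c to 8c was 7.83-fold in WT (log2 2.97 ± 0.61, adjusted p = 3.22e-05) and 13.1-fold in matPlag1KO (log2 3.71 ± 0.65, adjusted p = 1.38e-06), after a fall from MII of 4.41-fold (adjusted p = 0.00143) and 9.08-fold (adjusted p = 9.81e-06).

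Dnmt3l, the inactive relative that stimulates both enzymes, followed Dnmt3b rather than Dnmt3a after 2c. WT oocytes had 0.243 to 21.6 counts per 1000 spike-in counts (median 1.55), 2c embryos 0.239 to 2.16 (median 1.05) and 8c embryos 1.61 to 10.9 (median 4.16), and matPlag1KO medians were 2.59, 0.897 and 3.86. It was 3.06-fold lower at 2c than at MII in WT (adjusted p = 0.00284, but log2 0.22 and not called with TMM scaling) and 3.76-fold lower in matPlag1KO (adjusted p = 0.0006). It was then 4.76-fold higher at 8c in WT (log2 2.25 ± 0.50, adjusted p = 0.00011) and 3.28-fold higher in matPlag1KO (log2 1.71 ± 0.51, adjusted p = 0.0038).

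The Tet genes moved in opposite directions after 2c. Tet3, the oocyte dioxygenase, had 10.7 to 735 counts per 1000 spike-in counts in WT oocytes (median 38.4), 1.40 to 15.9 at 2c (median 4.38) and 0 to 6.71 at 8c (median 0.762). In matPlag1KO it had 29.3 to 545 (median 102), 1.501 to 21.0 (median 10.2) and 0.125 to 7.98 (median 1.17), and here oocytes and 2c embryos did not overlap. Tet3 was 18.9-fold lower at 2c than at MII in WT (log2 -4.24 ± 0.67, adjusted p = 6.58e-08) and 13.8-fold lower in matPlag1KO (log2 -3.79 ± 0.66, adjusted p = 6.79e-07), and without the A5 oocytes 11.6-fold and 10.98-fold lower. A second fall followed at 8c, 3.72-fold in WT (adjusted p = 0.00427) and 5.04-fold in matPlag1KO (adjusted p = 0.00166).

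Tet1, the family member typical of pluripotent cells, had 0 to 2.53 counts per 1000 spike-in counts in WT oocytes (median 0.176), with counts in 12 of 16, then 0 to 1.11 at 2c (median 0.598) and 0.616 to 5.75 at 8c (median 2.32). In matPlag1KO it had 0 to 1.48 (median 0.419), 0 to 1.43 (median 0.773) and 0.249 to 6.68 (median 2.76). It was the 1 gene of the 10 not lower at 2c than at MII, with changes of 0.60 ± 0.50 in WT (adjusted p = 0.29) and 0.51 ± 0.52 in matPlag1KO (adjusted p = 0.39). Without the A5 oocytes it was called higher at 2c in WT (1.19 ± 0.48, adjusted p = 0.0259). At 8c it was 4.48-fold higher than at 2c in WT (adjusted p = 0.000344) and 3.90-fold higher in matPlag1KO (adjusted p = 0.00169).

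Shares within a library need neither spike-ins nor library size. Of the pooled Tet1 and Tet3 counts, Tet1 made up 0.367% in WT oocytes, 9.99% at 2c and 65.4% at 8c, and 0.318%, 5.84% and 56.1% in matPlag1KO. Single WT libraries ran from 0 to 3.21% at MII, from 0 to 33.3% at 2c and from 41.5% to 100% at 8c, so 8c embryos lay above every library of the earlier stages. Dnmt3b made up 4.75%, 3.67% and 38.8% of Dnmt3a and Dnmt3b counts in WT at MII, 2c and 8c, and 5.38%, 4.41% and 48.5% in matPlag1KO. Dnmt3l made up 21.5%, 23.4% and 74.4% of Dnmt3l and Dnmt3a counts in WT, and 20.5%, 34.7% and 69.9% in matPlag1KO. Transcript length was not corrected for, so only the movement between stages is read from these shares, and they were not tested.

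**Figure D2:**
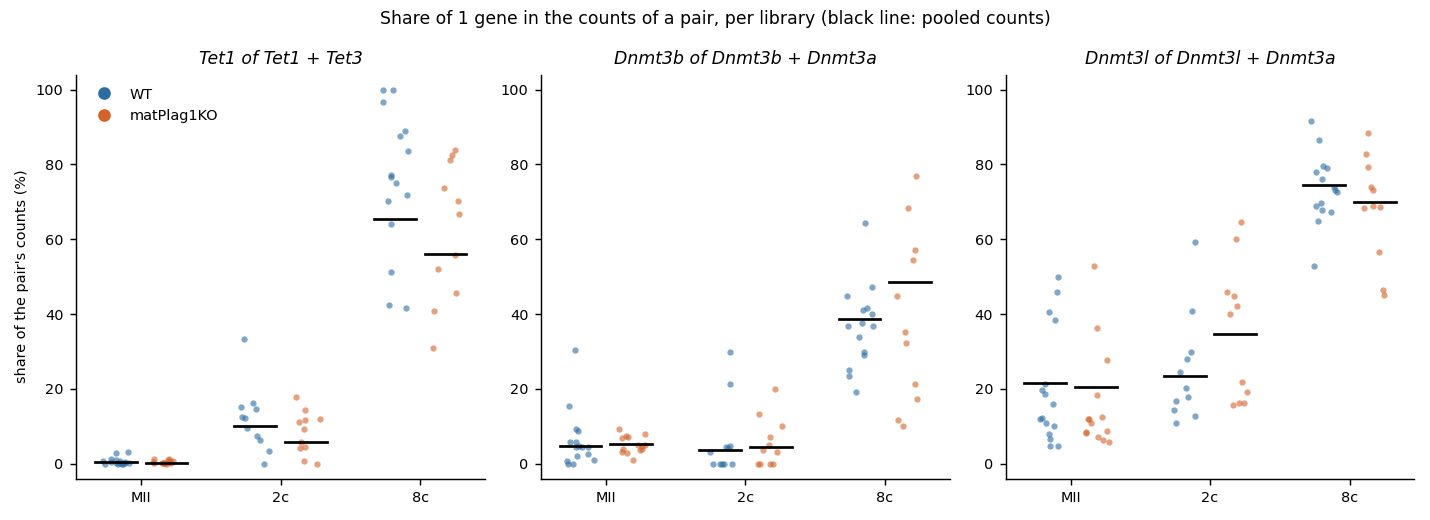
Share (%) of Tet1 in Tet1 and Tet3 counts, of Dnmt3b in Dnmt3b and Dnmt3a counts and of Dnmt3l in Dnmt3l and Dnmt3a counts, in each kept library at MII, 2c and 8c (WT blue, matPlag1KO orange, black lines from pooled counts). The pooled share of Tet1 went from 0.367% to 65.4% in WT between MII and 8c.

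The protectors also took different paths. On the spike-in scale Dppa3 varied least between oocytes for its mean. In TMM-scaled CPM, Dnmt3a varied less in knockout oocytes (SD over mean 0.281 against 0.360). In WT, Dppa3 had 93.0 to 384 counts per 1000 spike-in counts in oocytes (median 310.4), then 56.5 to 119.7 at 2c (median 97.4) and 193 to 402 at 8c (median 285). In matPlag1KO it had 296 to 461 (median 348), 20.8 to 177 (median 65.4) and 143 to 409 (median 242). All WT 8c embryos lay above all WT 2c embryos, and all knockout oocytes above all matPlag1KO 2c embryos. Dppa3 was 3.17-fold lower at 2c than at MII in WT (log2 -1.67 ± 0.24, adjusted p = 7.27e-09) and 4.82-fold lower in matPlag1KO (adjusted p = 1.06e-12), and then 3.22-fold higher at 8c in WT (adjusted p = 9.7e-09) and 3.59-fold higher in matPlag1KO (adjusted p = 3.18e-09).

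Zfp57, the imprint-binding zinc finger protein, fell at both steps. WT oocytes had 10.0 to 351 counts per 1000 spike-in counts (median 74.0), 2c embryos 2.33 to 15.8 (median 5.05) and 8c embryos 0.0800 to 3.05 (median 0.667), and the matPlag1KO groups 60.9 to 825 (median 108), 0.858 to 14.6 (median 6.39) and 0.748 to 7.07 (median 1.39). The falls were 21.7-fold to 2c (log2 -4.44 ± 0.54, adjusted p = 3.05e-11) and 6.61-fold to 8c (log2 -2.72 ± 0.47, adjusted p = 1.04e-06) in WT. They were 29.3-fold (adjusted p = 3.23e-12) and 3.98-fold (adjusted p = 0.000786) in matPlag1KO.

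Trim28, the corepressor that ZFP57 recruits, moved the other way after 2c. It had 0.121 to 30.8 counts per 1000 spike-in counts in WT oocytes (median 1.23), 0.431 to 2.28 at 2c (median 0.923) and 1.92 to 12.5 at 8c (median 3.79), and matPlag1KO medians were 3.26, 0.980 and 4.23. It was 3.08-fold lower at 2c than at MII in WT (adjusted p = 0.00612) and 3.31-fold lower in matPlag1KO (adjusted p = 0.00415), but at log2 0.61 and 0.30, neither called, with TMM scaling. It was 4.54-fold (adjusted p = 0.000602) and 3.32-fold (adjusted p = 0.0076) higher at 8c than at 2c. The fall in WT rested on the A5 oocyte, without which it was -0.50 ± 0.42 and not called (adjusted p = 0.299), while in matPlag1KO it was 2.16-fold (adjusted p = 0.0188).

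**Figure D3:**
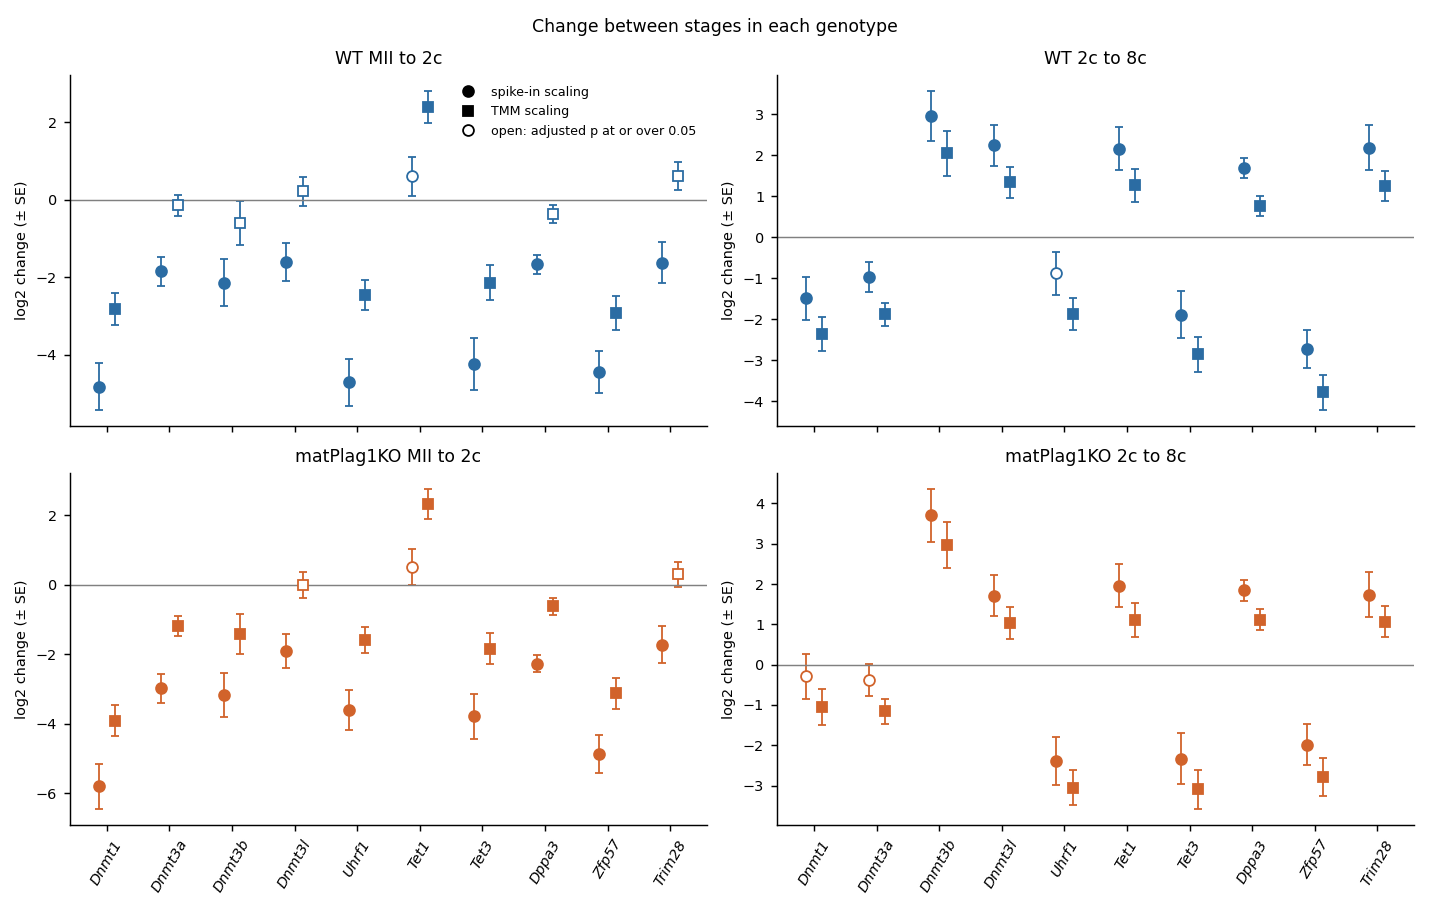
Log2 change between stages (± SE) of the 10 genes in WT (blue) and matPlag1KO (orange), with spike-in scaling (circles) and TMM scaling (squares), filled where the adjusted p was under 0.05. From 2c to 8c every gene kept its sign under both scalings, whereas from MII to 2c Trim28 changed sign in both genotypes and Dnmt3l in WT.

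Spike-in scaling carries the lower gene counts per spike-in count at 2c into every gene. The same changes were therefore computed relative to the other genes, with TMM scaling. Under it the all-gene median from MII to 2c was -0.03 in WT and 0.14 in matPlag1KO. In WT, Dnmt1 (-2.82), Uhrf1 (-2.45), Tet3 (-2.14) and Zfp57 (-2.93) remained lower (4 of 10, background 23.1%) and Tet1 was higher (2.39, 1 of 10, background 27.5%). Dnmt3a was at -0.15, Dnmt3b at -0.60, Dppa3 at -0.37, Dnmt3l at 0.22 and Trim28 at 0.61, and none of these was called. In matPlag1KO 7 genes were lower (background 19.3%), the 4 just named with Dnmt3a, Dnmt3b and Dppa3, and Tet1 was higher (2.33, background 29.1%). From 2c to 8c all 10 genes were called in both genotypes with TMM scaling. The 5 higher genes were those found with spike-in scaling (backgrounds 21% in WT and 21.2% in matPlag1KO), and Dnmt1, Dnmt3a, Uhrf1, Tet3 and Zfp57 were lower (backgrounds 28.9% and 30.3%).

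With spike-in scaling within plates, counts are given with the share of all tested genes called in either direction by the same fit. From MII to 2c in WT, 9 genes were called on plate A (background 54.5%) and 6 on plate B (45.9%), where Trim28 was at 0.67 (adjusted p = 0.356) and Tet1 was higher (1.94, adjusted p = 0.0263). In matPlag1KO 8 genes were called on plate A (49.4%) and 9 on plate B (52.4%). From 2c to 8c in WT, 5 were called on plate A (26.7%) and 9 on plate B (41.1%), and in matPlag1KO 6 (28.6%) and 7 (39.7%). Without the A5 oocytes 9 genes were called from MII to 2c in WT (62%) and 9 in matPlag1KO (62.6%), but Tet1 took the place of Trim28 in WT.

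Between genotypes, changes are given with TMM scaling and levels in TMM-scaled CPM, counts made relative to library size. In MII oocytes 0 of 10 genes were called (background 0.781%). Log2 differences, matPlag1KO over WT, ran from -0.27 (Dppa3) to 0.69 (Dnmt1). Of the 10, 1 gene had an unadjusted p under 0.05, against 1690 of all 16511 tested genes. DESeq2 called 0 of the 10 and 82 of the 16511. Dnmt1 had 68.0 to 1486 CPM in WT oocytes (median 586) and 378 to 2786 in knockout oocytes (median 780.1), and the groups overlapped (log2 0.69 ± 0.34, adjusted p = 0.471). Tet3 had 328 to 3291 CPM in WT oocytes (median 847) and 571 to 3669 in knockout ones (median 1412), again overlapping (log2 0.43 ± 0.37, adjusted p = 0.788). The differences of Trim28 (0.49 ± 0.32), Uhrf1 (0.46 ± 0.31), Dnmt3a (0.38 ± 0.25) and Dppa3 (-0.27 ± 0.21, but 0.26 with spike-in totals) were above their errors in size, and those of Dnmt3b (0.35 ± 0.41), Zfp57 (0.24 ± 0.36), Dnmt3l (0.23 ± 0.33) and Tet1 (0.06 ± 0.42) below them. Oocytes of opposite genotype shared each well position on the 2 plates, and a fit with the well as a block and plate as a term called 5 genes higher in the knockout, against a background of 4.92% higher. These were Dnmt1 (0.51, adjusted p = 0.000277), Tet3 (0.48, adjusted p = 0.000374), Uhrf1 (0.47, adjusted p = 0.0112), Zfp57 (0.29, adjusted p = 0.0339) and Trim28 (0.73, adjusted p = 0.046). Trim28 was also the 1 gene called on plate B alone (1.68, adjusted p = 0.0229, background 3.05%), while on plate A alone 0 of the 10 were called (background 0.916%) and Trim28 was at -0.23. Summed oocyte marker levels had a median of 5145 CPM in WT and 18280 CPM in knockout oocytes, with overlapping ranges, and their part in these differences was not tested.

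At 2c 1 of 10 genes was called, Uhrf1, which was 2.50-fold higher in matPlag1KO (log2 1.32 ± 0.40, adjusted p = 0.0389, background 4.92% in either direction and 2.3% higher). In CPM the 11 WT embryos ran from 16.9 to 103 (median 50.1, mean 53.1 ± 30.0 SD) and the 11 matPlag1KO embryos from 26.8 to 272 (median 120.0, mean 132 ± 74.5). In all, 6 of the 11 matPlag1KO embryos lay above all WT embryos and the ranges overlapped (two-sided permutation test of the means, p = 0.00294). On plate A the means were 107 ± 79.3 and 61.1 ± 42.3 (n = 5 and 4, exact permutation p = 0.381), and on plate B 152 ± 70.4 and 48.6 ± 23.1 (n = 6 and 7, exact permutation p = 0.00233). Of the 10 genes, Uhrf1 was put to this test because it had been called in the same embryos. These unadjusted p-values are therefore not independent of that call. The call was close to its threshold. Leaving out each of the 22 embryos in turn kept the log2 difference between 1.16 and 1.47, but the adjusted p ran from 0.0198 to 0.0923 and the call was lost in 12 of 22. These were the fits without WT embryo 3, 6, 8, 9, 10, 12 or 14 or without matPlag1KO embryo 2, 5, 8, 12 or 13, where the numbers are sample numbers within a group. With spike-in scaling the difference was 1.59 and not called (adjusted p = 0.108).

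**Figure D4:**
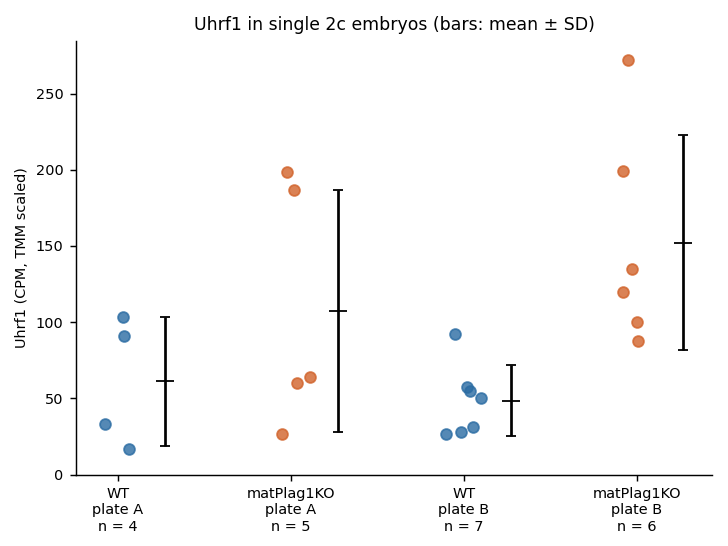
Uhrf1 level (TMM-scaled CPM) in each kept 2c embryo by genotype and plate, with mean ± SD beside the points. On plate B, 5 of 6 matPlag1KO embryos lay above all 7 WT embryos, and 2 of 5 on plate A above all 4.

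Summed marker levels of the same 2c groups stand beside this result. The 8 oocyte markers had a median of 1266 CPM (894 to 2166) in WT and 2790 CPM (917 to 7171) in matPlag1KO 2c embryos, and no marker of this list was at 0 in either group. The 8 markers of the 2-cell stage had a median of 231 CPM (104.9 to 1156) in WT and 573 CPM (244 to 714) in matPlag1KO, with 3 of the 8 at 0 in each group. The 8 markers of the 8-cell stage had 309 CPM (132 to 668) and 453 CPM (272 to 1741), with 1 at 0 in WT. This list was not particular to 8c. Its medians were 915 CPM in WT and 739 CPM in knockout oocytes, and 1425 and 766 CPM at 8c. The 2c medians of these 3 lists were higher in matPlag1KO and the ranges overlapped. The 8 cumulus cell markers had 2c medians of 46.4 CPM in WT and 42.8 CPM in matPlag1KO, with Ptx3, Inha and Cd44 at 0 in both. In oocytes, which cumulus cells surround, their median was 0 CPM in both genotypes (highest 1.17 in WT and 3.68 in knockout). At 8c it was 15.1 CPM in WT and 20.7 CPM in matPlag1KO. The part of any of these levels in the Uhrf1 difference was not tested. Transcripts kept from the oocyte and transcripts made by the embryo cannot be told apart in these counts.

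The other 9 genes were not called at 2c. Of these, Dnmt3a (log2 -0.67 ± 0.30, adjusted p = 0.182) and Dppa3 (log2 -0.52 ± 0.25, adjusted p = 0.207) had an unadjusted p under 0.05. Over all tested genes 3380 of 16511 had one. Dnmt3a had 40.2 to 284 CPM in WT embryos (median 206) and 31.9 to 200.2 in matPlag1KO (median 109.6), and Dppa3 had 3217 to 6948 (median 4761) and 1379 to 6499 (median 2532). Tet3, with a log2 difference of 0.73 ± 0.45 (adjusted p = 0.352), had 92.0 to 596 CPM in WT embryos (median 208) and 92.4 to 858 in matPlag1KO (median 420.4). All 3 pairs of groups overlapped. Dnmt1 (-0.40 ± 0.43), Dnmt3b (-0.46 ± 0.69), Zfp57 (0.04 ± 0.43), Trim28 (0.19 ± 0.40), Tet1 (-0.00 ± 0.41) and Dnmt3l (0.00 ± 0.41) had log2 differences smaller than their errors.

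At 8c 0 of 10 genes were called (background 1.74%). DESeq2 also called 0 of the 10, against 348 of all 16511 genes. An unadjusted p under 0.05 was found for 2 of the 10, against 2363 of the 16511. These were Zfp57 (log2 1.04 ± 0.43, adjusted p = 0.223), with 3.22 to 71.0 CPM in WT embryos (median 15.8) and 23.4 to 113 in matPlag1KO (median 36.5), and Dnmt1 (log2 0.90 ± 0.42, adjusted p = 0.307), with 0 to 47.6 (median 16.6) and 0 to 86.1 (median 32.0). Uhrf1, called at 2c, was at 0.14 ± 0.42 at 8c (adjusted p = 0.967). Tet3 (0.50 ± 0.44) and Dnmt3b (0.46 ± 0.42) had log2 differences just above their errors, and Dnmt3a (0.05 ± 0.29), Dnmt3l (-0.31 ± 0.36), Tet1 (-0.17 ± 0.37), Dppa3 (-0.17 ± 0.23) and Trim28 (0.00 ± 0.34) had ones below them. The genotype differences were also compared between stages. By edgeR none of the 10 was called for a change of its genotype difference from MII to 2c (background 3.31%) or from 2c to 8c (background 2.3%). An unadjusted p under 0.05 was found for 1 and 2 of the 10, against 2923 and 2958 of all 16511 genes. DESeq2 also called 0 of the 10 in each, against 730 and 654 of the 16511. For Uhrf1 the values were 0.87 ± 0.51 (adjusted p = 0.375) and -1.19 ± 0.59 (adjusted p = 0.266), so its call at 2c is not shown to be particular to that stage. From MII to 2c the log2 difference moved by -1.04 ± 0.39 for Dnmt3a (adjusted p = 0.121), -1.09 ± 0.55 for Dnmt1 and -0.81 ± 0.81 for Dnmt3b, and by -0.30 to 0.30 for Dnmt3l, Tet1, Tet3, Dppa3, Zfp57 and Trim28. Between 2c and 8c it moved by 1.301 ± 0.61 for Dnmt1 (adjusted p = 0.232), 1.00 ± 0.61 for Zfp57, 0.92 ± 0.82 for Dnmt3b and 0.71 ± 0.41 for Dnmt3a, and by -0.31 to 0.35 for Dnmt3l, Tet1, Tet3, Dppa3 and Trim28.

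**Figure D5:**
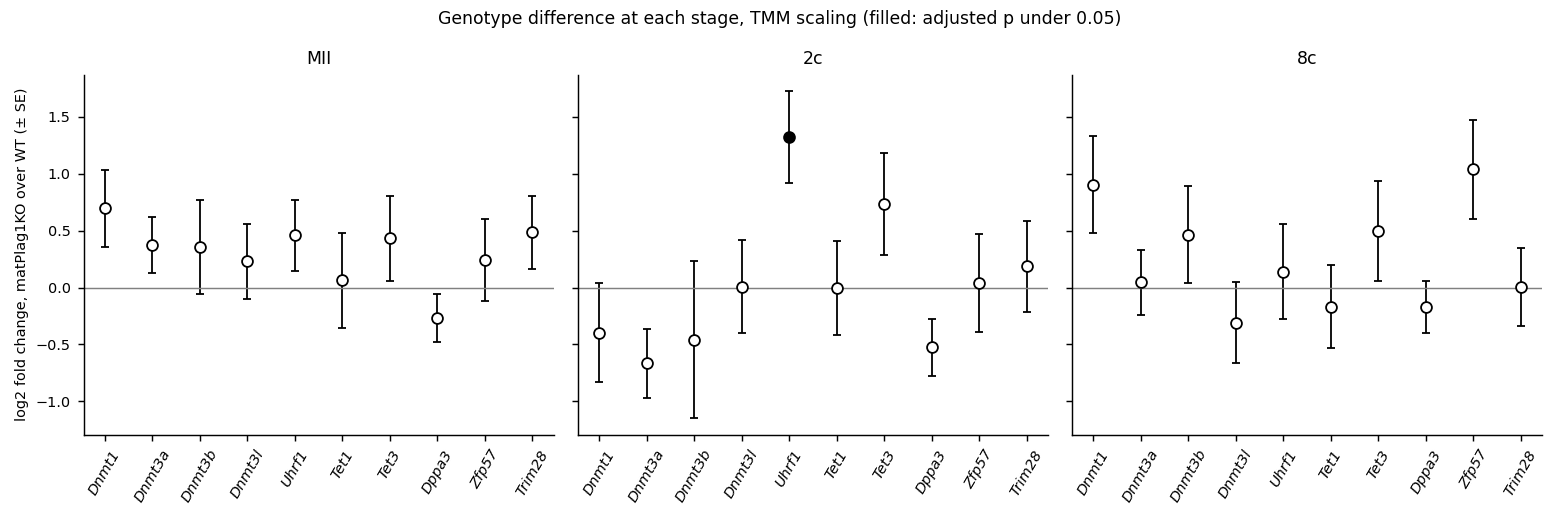
Log2 fold change, matPlag1KO over WT (± SE, TMM scaling), of the 10 genes at MII, 2c and 8c, filled where the adjusted p was under 0.05. Uhrf1 at 2c, at 1.32, is the 1 filled point.

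The setting was taken from 5 wider lists, namely the family and cofactors of the writers, silencing partners of Trim28 and Zfp57, readers of methylated CpG, base excision and deamination enzymes, and the supply of the methyl donor S-adenosylmethionine. Of their genes 66 were tested. From MII to 2c in WT, 33 of the 66 were lower and 13 higher with spike-in scaling (backgrounds 51.3% and 14.1%), and 19 lower and 26 higher with TMM scaling (23.1% and 27.5%). In matPlag1KO 39 were lower and 13 higher with spike-in scaling (50.3% and 13.5%), and 14 lower and 25 higher with TMM scaling (19.3% and 29.1%). The balance between lower and higher genes thus turned with the scaling in both genotypes. From 2c to 8c in WT 8 were lower and 23 higher with spike-in scaling (16.2% and 31.9%), and 18 lower and 15 higher with TMM scaling (28.9% and 21%). In matPlag1KO 9 were lower and 26 higher with spike-in scaling (19.5% and 29.1%), and 18 lower and 20 higher with TMM scaling (30.3% and 21.2%).

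At 2c 1 gene of the lists was higher and 5 were lower in matPlag1KO (backgrounds 2.3% and 2.62%). The lower ones included Dppa2 and Dppa4, partners that bind DNA together at CpG-rich promoters of early embryos. Dppa2 had a mean of 531 ± 248 CPM in WT and 179.6 ± 101 in matPlag1KO 2c embryos (n = 11 and 11, log2 -1.57 ± 0.26, adjusted p = 0.000127). Dppa4 had 368 ± 121 and 141 ± 86.6 CPM (log2 -1.39 ± 0.32, adjusted p = 0.00482). Cbx1, a heterochromatin protein that reads methylated H3K9, had 2775 ± 1178 and 882 ± 1049 CPM (log2 -1.66 ± 0.34, adjusted p = 0.00158). Mat2a, which makes S-adenosylmethionine, had 308 ± 115 and 160.0 ± 136 CPM (log2 -0.96 ± 0.30, adjusted p = 0.0455), and Mtrr, which keeps methionine synthase active, had 12.7 ± 9.46 and 2.00 ± 3.03 CPM (log2 -2.30 ± 0.72, adjusted p = 0.0439). The gene that was higher, the reader Zbtb33, had 0.569 ± 1.89 CPM in WT and 11.1 ± 21.1 in matPlag1KO (adjusted p = 0.023), a spread larger than its mean. In oocytes 1 of the 66 was called (background 0.781%). This was the reader Zbtb38 (0.474 ± 0.940 CPM in WT and 5.44 ± 16.1 in the knockout, adjusted p = 0.0474), again with a spread larger than its mean. At 8c 2 of the 66 were lower in matPlag1KO (background 1.74% in either direction). These were the glycosylase Neil1 and Shmt2, the mitochondrial serine hydroxymethyltransferase. Neil1 was sparse, at 1.95 ± 3.40 CPM in WT and 0 in all 11 matPlag1KO embryos (adjusted p = 0.0467). Shmt2 had 44.2 ± 25.7 and 14.4 ± 11.5 CPM (log2 -1.56 ± 0.38, adjusted p = 0.0142).

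Between stages in WT, levels of 4 genes of the lists are given as examples, in mean ± SD counts per 1000 spike-in counts. They were not the 4 that moved most. Bhmt, for instance, moved by log2 7.45 ± 0.69 from 2c to 8c (spike-in scaling, adjusted p = 8.19e-16). The third TET gene, Tet2, had 0.568 ± 0.685 in oocytes, 0.0873 ± 0.188 at 2c and 6.19 ± 5.56 at 8c, and was higher at 8c than at 2c under both scalings (log2 5.97 ± 0.80 with spike-in scaling, adjusted p = 1.05e-09). Kdm1b, the oocyte H3K4 demethylase needed for maternal imprints, fell from 15.8 ± 18.6 in oocytes to 0.762 ± 0.511 at 2c and 0.175 ± 0.267 at 8c, and both falls were called under both scalings. Setdb1, the H3K9 methyltransferase that works with TRIM28, fell from 15.6 ± 16.6 to 1.68 ± 0.517 at 2c (log2 -3.21 ± 0.45, adjusted p = 3.25e-09) and had 1.54 ± 0.936 at 8c, a step of -0.12 ± 0.41 (adjusted p = 0.839). Relative to the other genes, with TMM scaling, that step was called lower (-1.03 ± 0.31, adjusted p = 0.00361). Smarcad1, a remodeller that binds TRIM28, had 0.707 ± 0.834 in oocytes and 0.680 ± 0.565 at 2c (log2 -0.07 ± 0.41, adjusted p = 0.897, but 1.55 and called with TMM scaling) and was higher at 8c, at 6.10 ± 1.69 (log2 3.14 ± 0.45, adjusted p = 6.92e-09).

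Over the 78 libraries, log2(CPM + 1) was most alike for Uhrf1 and Tet3 (Pearson's r = 0.860), Tet3 and Zfp57 (r = 0.846) and Dnmt1 and Zfp57 (r = 0.831), whereas Tet1 was closest to Trim28 (r = 0.685). Of 8408 genes with a mean of at least 10 CPM outside the 10, the closest was Zbed3 for Tet3 (r = 0.927), E330021D16Rik for Zfp57 (r = 0.923), Slc45a3 for Uhrf1 (r = 0.887), Txnip for Dnmt1 (r = 0.875) and Eif3i for Dppa3 (r = 0.847). The closest were Gltscr2 for Tet1 (r = 0.824), Btbd10 for Dnmt3a (r = 0.814), Sumo2 for Trim28 (r = 0.795), Mien1 for Dnmt3l (r = 0.733) and Wdr83 for Dnmt3b (r = 0.653). The libraries share stages and plates, so these values describe likeness across the 6 groups and were not tested.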

How the data were processed

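Each library is 1 oocyte or embryo, read at the 5′ end of its transcripts, with unique molecular identifiers (UMIs) and added ERCC RNA. Reverse transcription was primed with oligo(dT), so a change in poly(A) tails cannot be told apart from a change in transcript amount. The authors aligned the reads with TopHat to mm9, counted reads per gene of a UCSC annotation with HOMER, and deposited raw counts, not normalized, for 90 libraries over 24422 genes and 92 spike-ins (versions are not given in the sources used here). Deep libraries give the firmer values: gene counts per kept library ran from 92475 to 2502421.

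The library filter (median CPM of 1 or more) kept 78, and 16511 genes reaching 1 CPM in 5 or more of those entered the tests. A single edgeR 4.0.16 fit (R 4.3.3) held a mean for each of the 6 groups, and calls used the quasi-likelihood test at a Benjamini-Hochberg adjusted p under 0.05. Each printed SE is the size of the log2 change divided by the square root of its quasi-likelihood F statistic. A change larger than its error is thus 1 with an F over 1. Genotypes were compared with TMM factors, stages with the spike-in total as library size. Printed CPM values are TMM scaled, except summed marker levels, which use gene totals. Permutation tests were two-sided, with 100000 resamples, or exact below 10 libraries in a group (scipy). Alternatives were spike-in or TMM scaling, DESeq2 1.42.0, all libraries, no gene filter, plate as a term, each plate alone and, for oocytes, a block by well. Counts were also simulated for the 2c libraries alone, with 12823 genes and changed genes drawn from those with a mean of at least 5 counts. A fit of these recovered 82 of 100 genes changed 4-fold and 14 of 100 changed 2-fold, and called 15 unchanged genes. The reported 2c test used the fit of all 6 groups and 16511 genes, so these rates were not measured for it or for sparser genes.

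Same-well oocytes of opposite genotype lie on different plates. Their deviations from group means correlated at over 0.1 in 12 of 14 pairs (lowest -0.056), and in 14 of 14 (lowest 0.148) once plate means were removed. The labels do not say what a well position shares, so the pairing is a reading of the data, and the block was judged with its calls already known. All 10 genes are named at every comparison, and of the wider lists no more than 2 called genes from each end of the range of changes, per list and comparison. The members and lists were chosen with earlier results of these data known.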

Additional observations from a re-analysis of the deposited data

How the results depend on the processing

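The number of the 10 genes called was compared across settings. After each number, brackets hold how many of all tested genes the same fit called. In MII oocytes (0 called) the number was 1 on plate B alone (463 of 15161) and 5 with the replicate block by well and plate as a term (792 of 12978). Without the A5 oocytes, a fit chosen after seeing the data, it was 0 (117 of 16432). At 2c (1 called) it was 0 with spike-in totals as library sizes (285 of 16511) and 0 with all libraries kept (768 of 16578). It was also 0 on plate A alone (0 of 15073) and 0 on plate B alone (502 of 15161). Leaving out each embryo in turn, also chosen after seeing the data, gave 0 to 1 (443 to 1127 genes). From MII to 2c in WT (9 called) it was 5 with TMM scaling (8354 of 16511). From 2c to 8c in WT (9 called) it was 5 on plate A alone (4026 of 15073). Over all genes the block called 792 in oocytes against 129 without it. Plate A alone called 0 at 2c against 812. Both fits rest on fewer libraries. Directions turned for Dnmt3l from MII to 2c in WT with TMM scaling (0.22), for Trim28 in WT with TMM scaling (0.61) and on plate B alone (0.67), and for Trim28 in matPlag1KO with TMM scaling (0.30). The cause of these changes was not tested. Of 270 values under the alternatives for genes called as reported, the other 266 kept their direction, 244 of them past the threshold and 22 no longer past it. Of 320 for genes not called, 294 kept their sign and 26 took the other sign without being called, among them, between genotypes in oocytes, Tet3 (-0.06) and Trim28 (-0.23) on plate A alone and Dppa3 (0.26) with spike-in totals. In all, 13 of the 320 were newly past the threshold. Sparse counts limit Dnmt3b and Tet1 most, since a zero in a 2c library (92475 to 256529 gene counts) does not show absence.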
